A study of Mus musculus with 7 samples.

Results

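The replication-dependent histone genes are the clustered genes that make the bulk of the core and linker histones, and they were taken here as all rows of the deposited table whose symbol begins with Hist1h, Hist2h, Hist3h or Hist4h. That rule gave 68 of 25965 rows, with no filter on level. They comprised 6 genes of linker histone H1 and, among the core histones, 19 of H2a, 18 of H2b, 12 of H3 and 13 of H4. By cluster, 55 lay in Hist1 on chromosome 13, 10 in Hist2 on chromosome 3, 2 in Hist3 on chromosome 11 and 1, Hist4h4, on chromosome 6. RNA-seq had been done on tissue cut from the posterior end of female FVB/N mouse embryos at E9.5, just behind the last somite, which the labels name postsomitic mesoderm and the title presomitic mesoderm. The 3 wild-type libraries (Smchd1 +/+) were compared with 4 libraries of genotype Smchd1 MommeD1/MommeD1, which the design text calls null while naming 3 such samples. Smchd1 encodes a chromosomal SMC-family protein. The labels do not say whether each library came from a separate embryo or whether the genotypes shared litters, so p-values measure only the spread between these libraries. The column names carry a number, unexplained in the sources used here, that null library D shares with wild-type libraries B and C, and another that null libraries B and C share.

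Cells need new histones when they copy their DNA, and these genes are transcribed mainly in S phase. Their mRNAs are known for ending not in a poly(A) tail but in a short conserved stem-loop, which is bound by the stem-loop binding protein SLBP and left behind when the U7 snRNP machinery cuts just downstream of it. A gene of this class can also make polyadenylated transcripts that run on past the stem-loop. Replication-independent variants such as H3f3a, H3f3b and H2afz are made throughout the cell cycle from ordinary polyadenylated mRNAs. Whether the libraries were selected for poly(A) RNA is not given in the sources used here.

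Values below are whole reads recovered from the deposited log2 values, or RPM, reads scaled to 1 M reads of the denominator behind those values. The denominators were 59.2 to 68.2 M reads, and 28.8% to 37.9% of them were reads in listed genes. That share was 34.3% to 37.4% in the null libraries, and 37.9%, 31.2% and 28.8% in wild-type libraries A, B and C, so the deposited values carry a shift between libraries. Differences are therefore given on the deposited scale and also centred, that is, with each library set to the same median over 13500 autosomal genes. Libraries are lettered within each genotype, because the column names do not tie them to numbered samples. Smchd1 had 1922 to 2372 reads in the null and 5572 to 6552 in the wild-type libraries. All 12 presomitic mesoderm markers passed the filter, with 305 to 491 RPM between them in each library. The sum does not show single markers: Mesp2 had 62, 3, 4 and 184 reads in null libraries A to D and 127, 124 and 8 in wild-type libraries A to C. Wnt3a had 1239 to 1752 reads in null libraries and 1102, 118 and 1243 in wild-type libraries A to C. With 10 reads the 95% Poisson interval runs from 4.8 to 18.4 reads and with 100 reads from 81.4 to 122, for counting error only. In bulk tissue, fewer cells in S phase and less histone RNA per cell cannot be told apart.

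The stem-loop is the sequence that sets this class apart. It is shown here for 6 genes, most of them among the more abundant ones, as the strand of the mRNA. The 16 bases of the loop and its paired arms are in capitals, with 7 bases on each side. The sequences were read from GENCODE M21 transcripts (GRCm38).
Hist1h1c: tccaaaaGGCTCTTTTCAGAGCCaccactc
Hist3h2a: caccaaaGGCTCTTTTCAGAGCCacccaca
Hist1h2be: aaccaaaGGCTCTTTTCAGAGCCacccaac
Hist1h3c: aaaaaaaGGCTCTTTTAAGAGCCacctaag
Hist1h4i: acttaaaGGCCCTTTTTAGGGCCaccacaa
Hist1h4b: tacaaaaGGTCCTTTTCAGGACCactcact
The motif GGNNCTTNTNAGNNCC, searched on the transcript strand, was found in transcripts of 46 of the 68 histone genes (67.6%) and of 155 of 55273 other genes (0.28%). Many of the remaining histone models end at or near the stop codon, and no match says only that these letters are not in the annotated transcript. Among the 46, the commonest form in H1, H2a, H2b and H3 genes was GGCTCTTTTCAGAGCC, in 3, 10, 8 and 5 genes. All 12 H4 genes with a match carried another stem, most often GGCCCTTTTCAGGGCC, in 7 genes. Hist1h4b and Hist1h4j had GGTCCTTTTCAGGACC. Hist2h2be had no match in its annotated transcript.

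The 250 bases before the start site are shown for an H1, an H2a, an H2b, an H3 and an H4 gene, because the types differ in the elements found there. The windows are from RefSeq (GRCm38.p6), written 5′ to 3′ on the strand of the gene, and capitals mark matches on either strand to the TATA box (letters TATAAA), the CCAAT box, the octamer (letters ATTTGCAT) or the H1 box (letters AAACACA).
Hist1h1c, chr13:23738557-23738806, plus strand: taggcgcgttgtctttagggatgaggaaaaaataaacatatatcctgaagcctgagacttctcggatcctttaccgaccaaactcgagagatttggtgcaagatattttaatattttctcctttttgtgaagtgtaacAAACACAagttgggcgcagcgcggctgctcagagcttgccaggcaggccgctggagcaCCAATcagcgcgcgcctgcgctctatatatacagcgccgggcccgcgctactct
Hist3h2a, chr11:58954435-58954684, plus strand: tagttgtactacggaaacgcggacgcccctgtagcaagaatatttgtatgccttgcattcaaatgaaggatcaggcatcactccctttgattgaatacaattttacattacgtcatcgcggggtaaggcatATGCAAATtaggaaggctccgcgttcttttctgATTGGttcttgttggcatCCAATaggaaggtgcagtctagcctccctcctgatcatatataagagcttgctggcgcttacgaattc
Hist1h2bg, chr13:23571150-23571399, plus strand: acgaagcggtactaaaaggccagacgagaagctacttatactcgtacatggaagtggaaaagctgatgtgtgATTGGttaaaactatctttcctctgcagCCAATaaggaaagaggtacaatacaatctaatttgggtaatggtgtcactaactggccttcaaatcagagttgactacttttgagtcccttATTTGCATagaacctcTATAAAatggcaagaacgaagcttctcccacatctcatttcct
Hist1h3c, chr13:23745522-23745771, minus strand: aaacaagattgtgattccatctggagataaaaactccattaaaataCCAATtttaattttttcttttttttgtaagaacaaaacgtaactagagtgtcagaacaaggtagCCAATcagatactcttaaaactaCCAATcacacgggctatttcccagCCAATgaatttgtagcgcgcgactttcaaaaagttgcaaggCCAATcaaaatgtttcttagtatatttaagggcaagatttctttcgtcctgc
Hist1h4i, chr13:22041363-22041612, minus strand: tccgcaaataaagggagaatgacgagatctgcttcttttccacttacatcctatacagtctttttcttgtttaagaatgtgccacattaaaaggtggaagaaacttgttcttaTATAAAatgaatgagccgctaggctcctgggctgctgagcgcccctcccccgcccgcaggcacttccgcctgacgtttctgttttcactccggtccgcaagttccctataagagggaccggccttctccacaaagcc
RefSeq promoter windows of 300 bases (250 before and 50 after the start) were found for 62 of the 68 genes. CCAAT was in 85.5% of these windows, against 37.4% of all 32851 promoters of that length. It was present in all H1, H2a, H2b and H3 windows and in 3 of 12 H4 windows. TATAAA was in 56.5%, against 13.6% of all promoters, and in 40.0% to 66.7% of each type. The octamer was in 7 of 18 H2a and 6 of 16 H2b windows and in none of the H1, H3 and H4 windows, against 1.74% of all promoters. The H1 box was in 5 of 6 H1 windows, in 9 of the 62 windows in all (14.5%), and in 7.18% of all promoters. None of the 4 motifs contains another. Matches were counted at any place in the window, so a TATAAA far from the start, as at base 114 in Hist1h4i, counts too. The windows of head-to-head genes can overlap, as for Hist1h2ae and Hist1h2bg, so the same element can count for both genes. The matches describe the letters only, and none was set against a measurement of factor binding.

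The histone genes gave few reads. They held 8386 reads over the 7 libraries, 0.00537% of all reads in listed genes, and 952 to 1682 reads in each library. Reads were found for 61 of the 68 genes, but 29 had at most 10 reads in every library and only 8 had 20 or more in every library. Those 8 were Hist1h1c (H1), Hist3h2a (H2a), Hist2h2be, Hist3h2ba, Hist1h2be and Hist1h2bc (H2b), Hist1h3c (H3) and Hist1h4i (H4). The 11 replication-independent variants together had 21472 to 25882 reads per library, and a single one of them, H3f3b, which encodes the H3.3 variant of H3, had 2051 to 2645. Levels between genes are not compared from these sums, since the rows differ in length.

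For 7 of the 68 genes there was no read in any library: Hist2h2aa1, Hist1h2aa, Hist1h2ao, Hist1h2ap, Hist1h2ba, Hist1h2bq and Hist1h2br. A count of 0 allows up to 3 reads, or 0.044 to 0.0507 RPM depending on the library. For 5 of the 7, over 85% of the 50-base windows of the annotated transcripts also occurred in another gene. The exceptions were Hist1h2ba, with 38.2% of windows shared, and Hist1h2aa, with 23.8%, which are known as testis histones. Sharing was common in the whole family: the median was 54.5% of windows, 35 genes were over 50%, 18 were over 85% and 4 were at 0%. Windows were matched on either strand, and a transcript annotated at the same place counts as another gene. How reads with several matches were counted is not given in the sources used here, so the reads of near-identical genes such as Hist2h2aa1 and Hist2h2aa2 are uncertain.

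**Figure D1:**
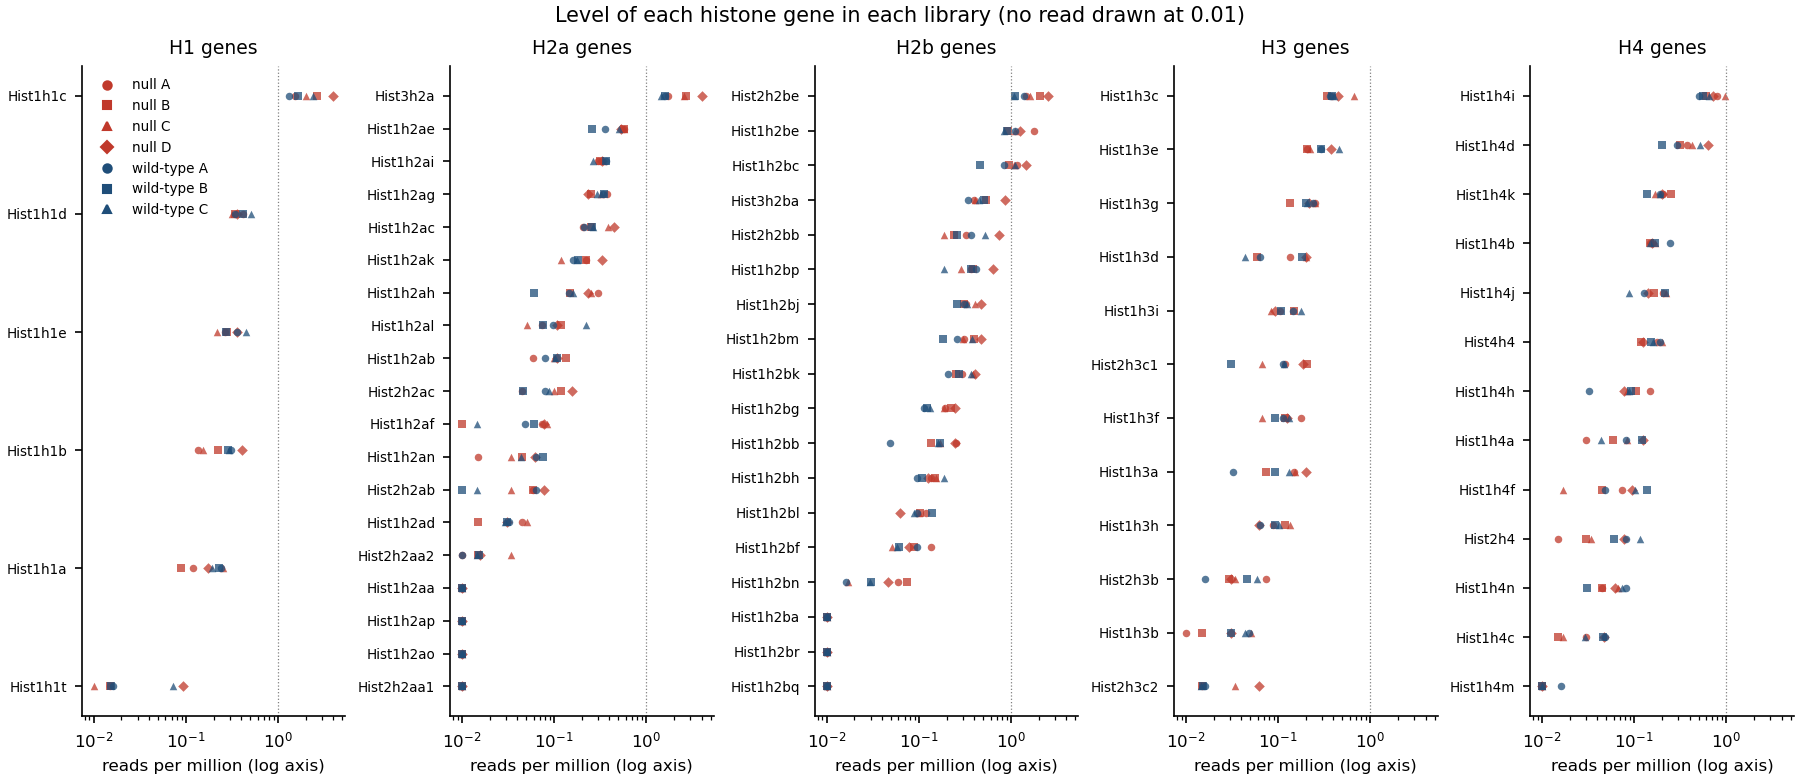
Level of each of the 68 histone genes (rows, grouped by type) in each of the 7 libraries, in RPM on a log axis; red symbols are null and blue wild-type libraries, the dotted line marks 1 RPM, and genes with no read are drawn at 0.01. Only 5 genes, Hist1h1c, Hist3h2a, Hist2h2be, Hist1h2be and Hist1h2bc, exceed 1 RPM in 3 or more libraries, and no H3 or H4 gene does.

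Most of the reads lay in rows that extend well past the coding sequence. In 25 genes the row runs over 150 bases past the stop codon, and these held 5846 of the 8386 reads (69.7%), with a median of 133 reads per gene. The 42 genes whose row ends within 150 bases of the stop codon held 2491 reads (29.7%), with a median of 42. Per kb of annotated exon the medians were 118 and 91.7 reads over all libraries, but per kb of row, introns included, they were 53.8 and 87.5, in the other order. The remaining row, Hist1h2al, is annotated as a processed pseudogene with no stop codon and had 49 reads. The stem-loop lay 1487 bases before the row end in Hist3h2a, 839 in Hist1h1c and 1789 in Hist1h2be, but 150 in Hist1h4i, 74 in Hist1h3c and 46 in Hist1h4b. The filter used for testing asks for more than 1 RPM (log2 over 0) in 3 or more libraries, and all 5 genes that passed it were among the 25. The position of reads within a row cannot be seen in a table of totals, so the share that came from beyond a stem-loop was not measured.

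**Figure D2:**
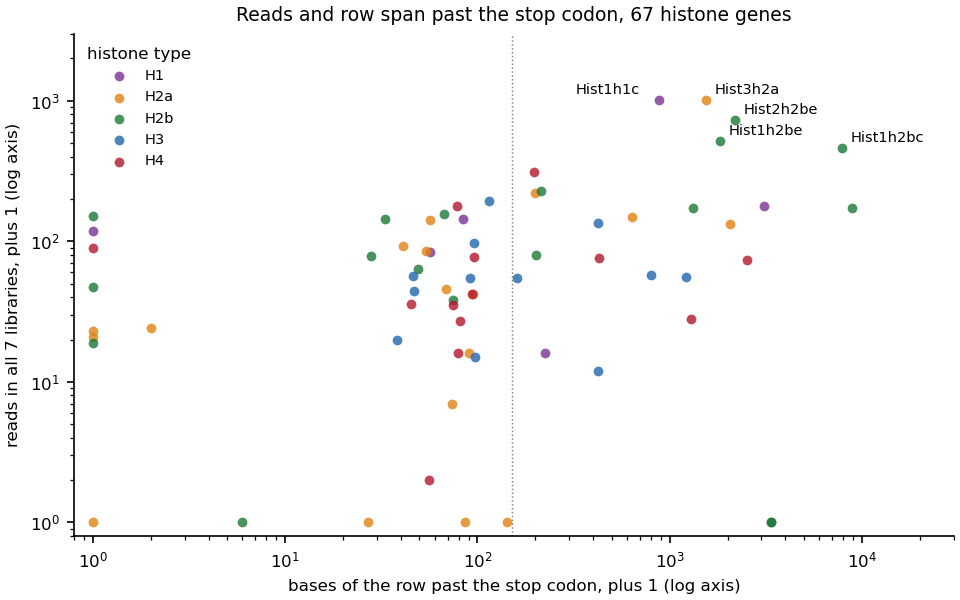
Reads in all 7 libraries against the bases of the row past the stop codon for the 67 histone genes with an annotated stop codon, both plus 1 and on log axes, with colours for histone type; the dotted line marks 150 bases. The 5 named genes, which passed the filter, have between 457 and 1009 reads and lie to the right of the line.

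Linker histone H1 compacts the fibre between nucleosomes, and its 6 genes held 18.4% of the histone reads. Hist1h1c stood first in the type at 645 reads per kb of exon over all libraries, followed by Hist1h1e at 193 and Hist1h1b at 157. Hist1h1c (chromosome 13, 23738807 to 23740366) had 102, 178, 119 and 254 reads in null libraries A to D and 82, 107 and 163 in wild-type libraries A to C. The groups overlap, and each spreads widely, with null library D and wild-type library C the highest. Reads of Hist1h1e were 18, 19, 13 and 23 in null and 22, 18 and 31 in wild-type libraries. Hist1h1b had 9, 15, 9 and 26 against 19, 19 and 20, and Hist1h1a had 8, 6, 15 and 11 against 15, 15 and 13. For each of these 3 genes the groups overlap at low counts. Hist1h1d had 19 to 28 and 21 to 35 reads, and Hist1h1t, known as the testis H1, had 0 to 6 and 1 to 5. Hist1h1a and Hist1h1b share no 50-base window with any other gene.

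Among the H2a genes, which gave 24.4% of the reads, Hist3h2a held 1009 of 2044 reads. Hist3h2a (chromosome 11, 58954685 to 58956674) had 117, 180, 153 and 256 reads in null libraries A to D and 99, 106 and 98 in wild-type libraries A to C. The null values were all higher than the wild-type ones, in reads and in RPM. A transcript of Trim17 starts at the same base on the same strand, and the table counts overlapping rows more than once: Xist and its antisense partner Tsix differ by at most 18 reads in a library. Trim17 had 438, 475, 469 and 556 reads in null and 478, 343 and 327 in wild-type libraries. Its reads less those of Hist3h2a were 295 to 321 in null and 229 to 379 in wild-type libraries, which overlap. Reads from the first exon of Trim17 cannot be told apart from those of Hist3h2a.

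Per kb of row, Hist3h2a had 507 reads over all libraries, Hist1h2ae 312 and Hist1h2ag 297. Hist1h2ae had 39, 39, 34 and 34 reads in null and 22, 17 and 35 in wild-type libraries, and its RPM did not overlap between groups. Hist1h2ag had 25, 17, 19 and 15 against 21, 23 and 20, with overlap. Hist1h2an had 1 to 4 reads in null and 3 to 5 in wild-type libraries. The H2a genes of the Hist2 cluster were near the limit of detection: Hist2h2ac had 3 to 10 reads per library, Hist2h2ab 0 to 5 and Hist2h2aa2 0 to 2.

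H2b genes held the most reads of any type, 3036 (36.2%), and 3 of the 5 genes above the filter. Hist2h2be (chromosome 3, 96221121 to 96223738) had 99, 138, 95 and 163 reads in null libraries A to D and 85, 72 and 74 in wild-type libraries A to C, with no overlap. It shares no 50-base window with another gene and no other row overlaps it. Hist1h2bc (chromosome 13, 23684199 to 23692488) had 78, 64, 64 and 93 against 52, 30 and 76 reads, with overlap. Its row reaches 7876 bases past the stop codon through a spliced second exon, and per kb of exon it stood at 621 reads over all libraries. Hist1h2be had 120, 63, 65 and 81 against 68, 60 and 58 reads, and it is named because it passed the filter. Null library A stood highest, and the row spans 37383 bases up to the neighbourhood of Hist1h1e.

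Hist1h2bc and Hist1h2be passed the filter in 3 null libraries and 1 wild-type library each, so the filter favoured them where they were high in null. Per kb of row the leading H2b genes were Hist1h2bm at 394 reads over all libraries, Hist3h2ba at 365 and Hist1h2bj at 337. Hist1h2bm had 21, 27, 18 and 30 reads in null and 16, 12 and 26 in wild-type libraries. Hist3h2ba had 27, 36, 24 and 55 against 21, 33 and 31, and Hist1h2bj had 22, 21, 24 and 30 against 19, 17 and 23. These groups overlap on the scale of RPM. Hist2h2bb had 22, 16, 11 and 47 against 23, 17 and 36 reads, but the row of Gm20628 overlaps it. All of its 50-base windows occur in other annotated genes, 2 in number and 0 of them among these histone genes. Transcripts annotated at the same place count as other genes, so these windows need not be copies elsewhere. Hist1h2bg, which shares its promoter region with Hist1h2ae, had 13, 15, 11 and 16 against 7, 8 and 9 reads, with no overlap.

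No H3 gene passed the filter, and the 12 together held 9.38% of the reads. Hist1h3c led at 308 reads per kb of row over all libraries, then Hist1h3g at 183 and Hist1h3e at 159. Hist1h3c had 26, 23, 40 and 29 reads in null and 23, 25 and 28 in wild-type libraries. Hist1h3g had 17, 9, 15 and 14 against 15, 13 and 14, Hist1h3e 14, 14, 13 and 24 against 18, 19 and 31, and Hist1h3i 5 to 10 against 7 to 12. All of these groups overlap. In the Hist2 cluster, Hist2h3c1 had 8, 14, 4 and 12 against 7, 2 and 8 reads, the very values listed for the overlapping row Gm20634. Hist2h3c2 and Hist2h3b had 1 to 5 reads in each library.

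The 13 H4 genes encode the histone that pairs with H3, and they held 11.7% of the reads. Hist1h4i was the first of them at 577 reads per kb of row over all libraries, then Hist1h4d at 453 and Hist1h4k at 282. Hist1h4i had 53, 41, 58 and 46 reads in null and 31, 37 and 44 in wild-type libraries. Hist1h4d had 25, 21, 25 and 41 against 18, 13 and 35, and Hist1h4k had 14, 17, 10 and 13 against 12, 9 and 13. On the RPM scale the groups of all 3 overlap. Hist1h4b had 10 reads in each null library and 15, 11 and 10 in the wild-type libraries, within 1 read of the antisense row 4930558J22Rik in every library. Hist2h4 had 1, 2, 2 and 5 against 5, 4 and 8 reads, and Hist4h4 had 12, 8, 12 and 8 against 12, 10 and 11.

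The genotype comparison asked whether any of these genes responds to loss of Smchd1, and none passed the test. In limma on the deposited log2 values, 0 of the 5 histone genes tested were called at a Benjamini-Hochberg adjusted p under 0.05, beside 0.0429% of all genes (6 of 13997). Two-sided unadjusted p-values were under 0.05 for 2 of the 5, both higher in null, beside 13.9% of all genes higher at that level and 14.0% in either direction. After centring, again 0 of 5 were called, beside 0.0572% of all genes, and 0 of 5 had an unadjusted p under 0.05, beside 14.0% of all genes in either direction. None of the histone genes was called in any of 28 fits. Leaving out a single library moved the count over all genes: to 157 when null library A was dropped, 3 for null library B, 4205 for wild-type library A, 150 for wild-type library B and 2 for wild-type library C.

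All 5 differences were above 0, from 0.38 to 0.77 with a median of 0.61 on the deposited log2 scale, where the median of all 13997 genes was 0.16. After centring they ran from 0.19 to 0.57, with a median of 0.41 against -0.03 over all genes. Because Hist1h2bc and Hist1h2be passed the filter through 3 null libraries and 1 wild-type library each, the shared sign and the median describe these 5 genes only and support nothing about the class. For Hist3h2a the null mean on the log2 scale was 1.40 ± 0.49 (SD, n = 4), and the wild-type mean was 0.63 ± 0.09 (SD, n = 3). This difference of 0.77 (SE 0.29), or 1.7-fold, had an adjusted p of 0.285 in limma, and the centred difference of 0.57 one of 0.352. After centring the groups of Hist3h2a touched, with null library A at 0.80 and wild-type library B at 0.89. Without null library D the differences were 0.57 and 0.39.

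Hist2h2be had a null mean of 0.91 ± 0.36 (SD, n = 4), against 0.24 ± 0.19 (SD, n = 3) for the wild-type. Its difference of 0.67 (SE 0.29), or 1.59-fold, had a limma adjusted p of 0.326. After centring the difference was 0.48, with an adjusted p of 0.354. The null libraries then lay at 0.55 to 1.21 and the wild-type libraries at 0.31 to 0.39, still without overlap. Over all fits the adjusted p ran from 0.0646 to 0.73 for Hist2h2be and from 0.0667 to 0.71 for Hist3h2a. With the number that null library D shares with wild-type libraries B and C as a block, only those 3 libraries bear on the difference. D is the only null library among them, and it had the highest summed histone level, at 26.3 RPM. The difference was then 1.39 for Hist3h2a and 1.22 for Hist2h2be, where the median of all genes was 0.34. When centred it was 1.01 and 0.84, where the median of all genes was -0.03.

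Hist1h2bc differed by 0.61 (SE 0.37, limma adjusted p = 0.459), Hist1h1c by 0.46 (SE 0.34, adjusted p = 0.521) and Hist1h2be by 0.38 (SE 0.33, adjusted p = 0.571). Centred, they differed by 0.41, 0.27 and 0.19. The difference of Hist1h2bc moved with single wild-type libraries, to 0.25 without B and 0.89 without C (0.10 and 0.78 centred), and it was 0.02 after quantile normalization. Hist1h1c moved to 0.22 without null library D and 0.27 without wild-type library A (0.04 and -0.05 centred), and up to 0.69 without wild-type library C (0.59 centred). Without null library A, Hist1h2be stood at 0.20 (-0.02 centred). In these 3 genes the groups overlap on both scales. The 5 genes stand low among all genes tested: between 1.56% and 10.8% of the 13997 had a lower mean log2 value.

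**Figure D3:**
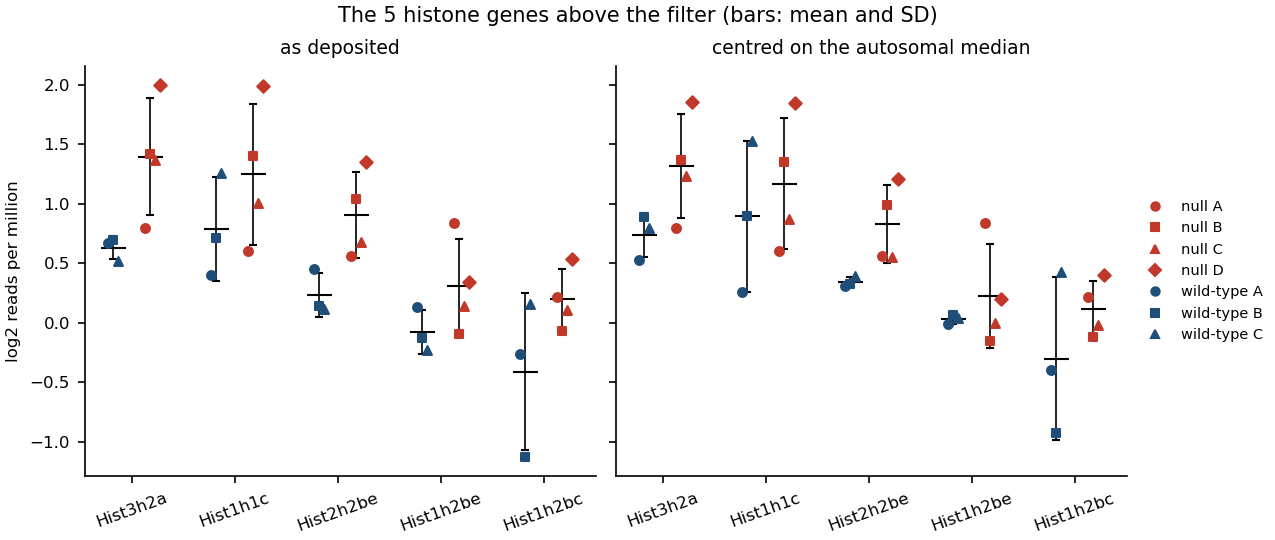
Log2 RPM of the 5 histone genes above the filter in each library, as deposited (left) and with each library set to the same autosomal median (right); bars are the mean and SD of 4 null (red) and 3 wild-type (blue) libraries. Hist2h2be keeps every null library above every wild-type library in both panels, and Hist3h2a in the left one.

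Genes below the filter were examined in fits over all 25965 rows. On the deposited scale without a filter, 38 of the 61 histone genes with reads lay above 0 and 23 below, with a median of 0.24 against 0.12 over all rows. In the centred fit it was 33 above and 28 below, with a median of 0.05 against -0.07 over all rows. The voom model on the recovered reads, in limma, gave 32 above and 29 below, with a median of 0.03 against -0.05. No gene was called in these 3 fits, beside 0.0193%, 0.0385% and 0.0501% of all rows. The balance of higher and lower genes thus moved with the scaling.

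By type, the genes with reads were spread around 0 in that voom fit as follows, where the median of all rows was -0.05. For H2b, 12 lay above and 3 below, with a median of 0.20, and for H1, 1 lay above (Hist1h1c) and 5 below, with a median of -0.57. H2a genes were 8 above and 7 below, H3 genes 6 and 6, and H4 genes 5 and 8. No test was made between types, and genes read in the same 7 libraries are not replicates of a type. The 5 H1 genes below 0 had 15 to 176 reads in all and SEs of 0.26 to 0.92. Unadjusted p-values were under 0.05 for 4 genes, with 11.0% of all rows at that level in either direction. These were Hist1h4b at -0.40 (limma adjusted p = 0.395), Hist1h2bg at 0.59 (adjusted p = 0.404), Hist2h4 at -1.30 (adjusted p = 0.417) and Hist2h2be at 0.49 (adjusted p = 0.447). Within the other types, the 2 genes with the smallest p were Hist1h1a at -0.73 (limma adjusted p = 0.456) and Hist1h1e at -0.51 (adjusted p = 0.497) for H1, Hist3h2a at 0.60 (adjusted p = 0.475) and Hist1h2an at -0.83 (adjusted p = 0.475) for H2a, and Hist1h3i at -0.56 (adjusted p = 0.498) and Hist1h3e at -0.61 (adjusted p = 0.5) for H3. Apart from Hist2h2be and Hist3h2a these genes had at most 31 reads in any library.

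**Figure D4:**
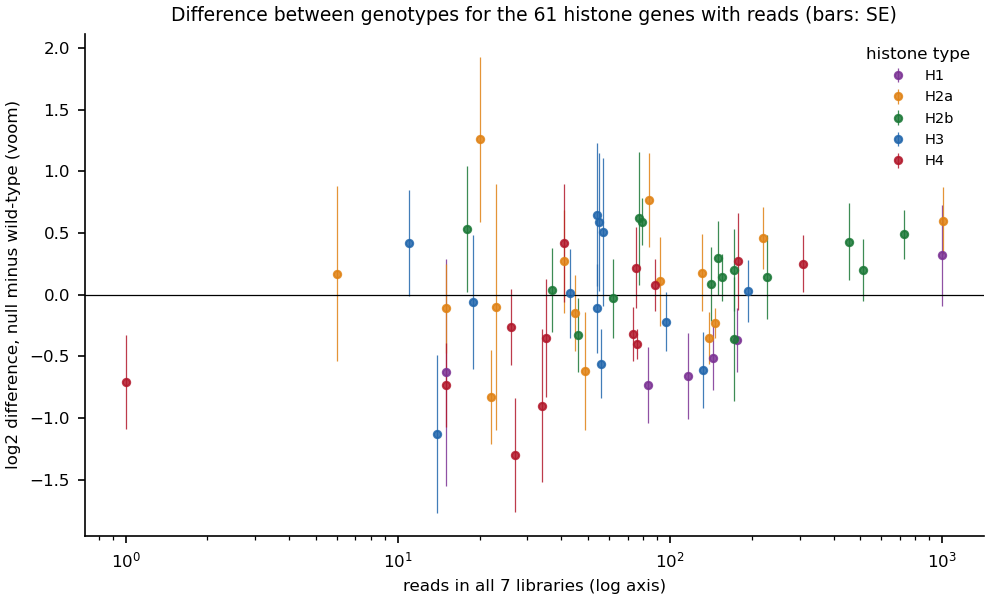
Log2 difference between genotypes (null minus wild-type, voom on recovered reads with no filter, bars are the SE) against the reads in all 7 libraries on a log axis, for the 61 histone genes with reads, coloured by type. The differences spread from -1.30 to 1.26 among genes with few reads, and 5 of the 6 H1 genes lie below 0, each with 15 to 176 reads in all.

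As deposited, the null values were all higher than the wild-type values for 4 of the 68 genes (Hist2h2be, Hist3h2a, Hist1h2ae and Hist1h2bg), beside 6.21% of all rows, and for 0 in the other direction, beside 0.200%. Centred, 2 were higher without overlap (Hist2h2be and Hist1h2bg), beside 5.14% of all rows. Another 3 were lower (Hist1h2ai, Hist1h4b and Hist1h4m), beside 4.84%, and of these Hist1h4m had 1 read in all. The histone genes' counts are close to those over all rows.

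Summed over all 68 genes, the level was 17.9, 18.8, 18.9 and 26.3 RPM in null libraries A to D and 15.3, 14.8 and 17.6 in wild-type libraries A to C. The means were 20.5 ± 3.9 (SD, n = 4) and 15.9 ± 1.48 (SD, n = 3), a ratio of 1.29 with no overlap. Per M reads in listed genes they were 56.7 ± 9.31 and 49.7 ± 10.6, a ratio of 1.14, and the groups overlapped, with wild-type library C at 61.2 above 3 null libraries. On a log2 scale the RPM difference was 0.36 with all libraries and 0.22 without null library D. The 5 genes above the filter had a ratio of 1.54 in RPM and 1.36 per M listed reads, and the other 63 had 1.12 and 0.995. Their selection by level is part of that contrast, as the filter can pass a gene through its higher group.

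By type, the ratio in RPM was 1.45 for H2a (5.21 ± 1.11 against 3.6 ± 0.0717) and 1.37 for H2b (7.57 ± 1.44 against 5.53 ± 0.522), neither with overlap. It was 1.15 for H1, 1.09 for H3 and 1.12 for H4, all with overlap. Per M listed reads the 5 ratios were 1.29, 1.22, 1.01, 0.962 and 0.999, and every type overlapped. By cluster, RPM did not overlap for Hist2 (ratio 1.43) and Hist3 (ratio 1.66), which hold Hist2h2be and Hist3h2a. Hist1 (ratio 1.2) and Hist4 (ratio 0.924) overlapped. Per M listed reads, the Hist2 and Hist3 groups overlapped too.

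**Figure D5:**
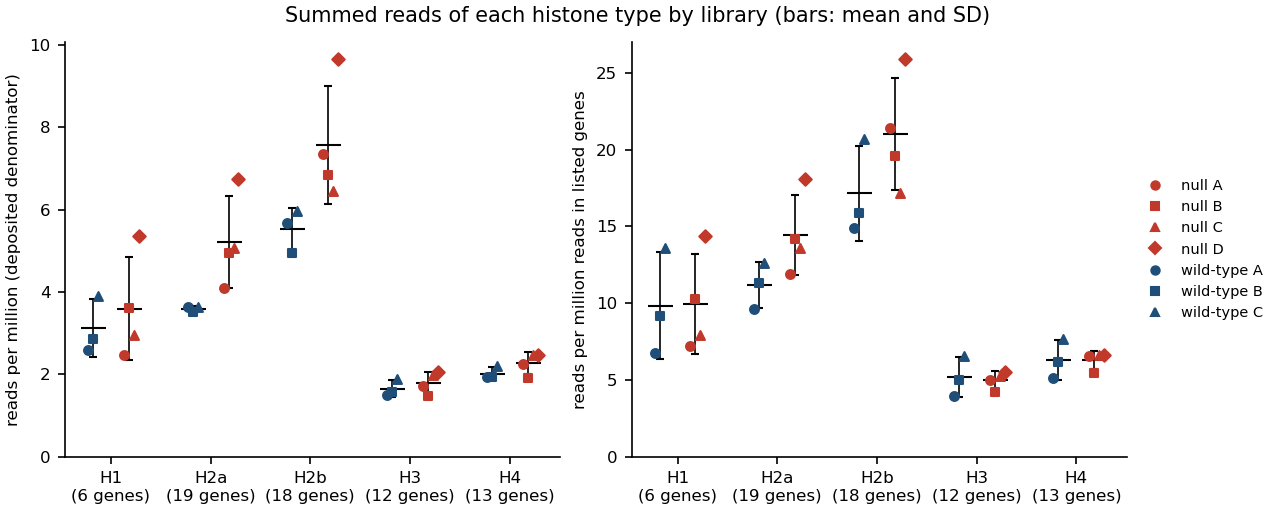
Summed reads of each histone type in each library, per M reads of the deposited denominator (left) and per M reads in listed genes (right); bars are the mean and SD of 3 wild-type (blue) and 4 null (red) libraries. Null library D is the highest point of H1, H2a and H2b in both panels, and H2a and H2b separate by genotype in the left panel only.

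Genes that make, process and deposit histones were tested in the same fit, and none of the lists held a called gene on the deposited or the centred scale. All 11 replication-independent variants were tested, with a median of 0.12 deposited and -0.08 centred, beside medians of 0.16 and -0.03 over all genes. Centred, they ran from -0.19 to 0.03, and 2 of 11 had an unadjusted p under 0.05, where 14.0% of all genes did. Cenpa, the centromeric H3 variant, differed by 0.22 (limma adjusted p = 0.438, centred 0.03), and H2afy, which encodes macroH2A, by 0.16 (adjusted p = 0.529, centred -0.04). Of 19 genes for transcription and 3′ processing of histone mRNA, 18 were tested, with medians of 0.11 and -0.08 and a centred range of -0.20 to 0.18. When centred, 4 of the 18 had an unadjusted p under 0.05, beside 14.0% of all genes. Cstf2, a cleavage factor subunit, had 4501 to 5748 reads in null and 3646 to 4389 in wild-type libraries, a difference of 0.37 (limma adjusted p = 0.245, centred 0.18). Its gene lies on chromosome X and the embryos were female. The part of X linkage in this difference was not tested. E2f1, a transcription factor of the G1/S transition, differed by 0.20 (limma adjusted p = 0.496, centred 0.01). Slbp, whose protein binds the stem-loop, had 2167 to 2225 and 1950 to 2280 reads.

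Histone chaperones, which carry histones to DNA, numbered 16 tested of 17, with medians of 0.07 deposited and -0.12 centred. The centred values ran from -0.16 to 0.08, and 5 of 16 had an unadjusted p under 0.05, beside 14.0% of all genes. Atrx, part of the H3.3 deposition pathway, differed by 0.27 (limma adjusted p = 0.341, centred 0.08) and Hjurp, the chaperone of Cenpa, by 0.25 (adjusted p = 0.403, centred 0.06).

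The 26 S-phase genes had medians of 0.08 deposited and -0.12 centred, with Tipin at 0.19 (limma adjusted p = 0.469, centred 0.00) and Gins2, a replicative helicase subunit, at 0.18 (adjusted p = 0.476, centred -0.01). Unadjusted p-values were under 0.05 for 0 of the 26 as deposited and for 7 when centred, beside 14.0% of all genes on each scale. The centred values ran from -0.22 to 0.00. Their summed reads per M listed reads were 3729 ± 34.2 in the null (SD, n = 4) against 3931 ± 219 in the wild-type group (SD, n = 3), with overlap. The 19 G2/M genes had medians of 0.07 and -0.12, with the mitotic cyclins Ccnb1 at 0.19 (limma adjusted p = 0.479, centred -0.00) and Ccnb2 at 0.18 (adjusted p = 0.504, centred -0.01). For 0 of the 19 was the unadjusted p under 0.05 as deposited, and for 9 of them when centred, beside 14.0% of all genes. The centred values ran from -0.18 to -0.00. Their summed reads per M listed reads were 3549 ± 50.9 in the null (SD, n = 4) against 3745 ± 98.2 in the wild-type group (SD, n = 3), lower in null without overlap, while in RPM they were 1277 ± 50.1 and 1218 ± 145, with overlap. The sign of the 2 medians thus turned with the scaling. Both medians lay below that of all genes on each scale, which was 0.16 deposited and -0.03 centred. None of the genes in these cell cycle lists was called on either scale. Of 24 other RNAs known to lack a poly(A) tail, such as Rmrp and Rn7sk, 0 have a row in the table.

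Markers of other tissues were set beside these values. Hindgut markers, all 6 of 6 tested, summed to 98.4 ± 7.83 RPM (SD, n = 4) in null against 64.4 ± 19.7 (SD, n = 3) in wild-type tissue without overlap, from 88 to 105 against 43 to 81.7. Wild-type library B was the lowest, at 43 RPM. Per M listed reads the sums were 273 ± 18.5 (SD, n = 4) and 197 ± 52.5 (SD, n = 3), also without overlap. The median of these markers was 0.77 deposited and 0.57 centred, with Foxa2 at 0.82 (limma adjusted p = 0.146) and Cdh1 at 0.81 (adjusted p = 0.18), and 0 were called. The unadjusted limma p was under 0.05 for 6 of 6 as deposited and for 5 when centred, beside 14.0% of all genes on each scale. Neural markers ran from 21.3 to 62.3 RPM in null and from 26.7 to 76.1 in wild-type libraries, summed over all 6. The 5 tested had medians of -0.32 deposited and -0.51 centred, with Sox1 at -0.79 (limma adjusted p = 0.494) and Sox2 at -0.17 (adjusted p = 0.715). Blood markers ran from 80.1 to 102 and from 56.7 to 111 RPM, summed over all 7. The 6 tested had medians of 0.04 and -0.15, with Alas2 at 0.47 (limma adjusted p = 0.531) and Gata1 at 0.41 (adjusted p = 0.669), both on chromosome X. Germ cell markers ran from 16.4 to 21.3 and from 4.28 to 16.6 RPM, summed over all 7. The low end was wild-type library B alone, while wild-type libraries A and C had 16.6 and 14.7 RPM. The 3 tested had medians of 1.00 and 0.81, with Prdm1 at 1.00 (limma adjusted p = 0.323) and Pou5f1 at 1.90 (adjusted p = 0.345). Pou5f1 had 72, 4 and 141 reads in wild-type libraries A to C, and Prdm1 had 637, 118 and 473. Dazl had 1 to 7 reads in null and 0 to 5 in wild-type libraries, Ddx4 6 to 16 and 9 to 14, and Nanos3 22 to 58 and 26 to 59. Dppa3 had 15 to 46 and 1 to 30, and Tfap2c 266 to 380 and 120 to 314. The 12 presomitic markers ran from 378 to 491 RPM in null and from 305 to 437 in wild-type libraries, with medians of 0.32 deposited and 0.13 centred and a centred range of -1.55 to 1.31. Unadjusted p-values were under 0.05 for 5 of the 12 as deposited and 1 when centred, beside 14.0% of all genes on each scale. T and Fgf8 differed by 0.76 (limma adjusted p = 0.198, centred 0.57) and 0.87 (adjusted p = 0.272, centred 0.68). Here too wild-type library B stood apart: T had 4302, 2059 and 4277 reads in wild-type libraries A to C, and Fgf8 had 1124, 394 and 1248. The part of these tissues in the histone values was not tested.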

How the data were processed

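RNA-seq values came from 1 table with 7 library columns. Its values are log2 RPM as the authors deposited them, per the file headers. The submitters' processing notes name bcl2fastq, TopHat2 2.0.12, the build mm10 and edgeR. Nothing in the sources used here gives the annotation, the counter, its strand setting or the treatment of reads with several matches. Xist and Tsix, on opposite strands, had nearly equal reads, so the counts of such overlapping rows were not separated by strand. Reads were recovered from the log2 steps: 100% of the values below 1000 reads were whole within 0.01, and a row with no read is listed at 0.9 read. Replicate libraries differed by more than counting noise (chi-square per degree of freedom 9.03 to 22.3), and each was kept as its own replicate.

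The genotypes were compared with limma 3.58.1 (R 4.3.3), with a prior trend, no covariate and Benjamini-Hochberg adjustment over the 13997 genes whose log2 value exceeded 0 in 3 or more libraries. The script was tested on simulated data. Of symbols shared with GENCODE M21, 99.6% overlapped in position, and transcripts, stop codons and sequences were taken from GENCODE M21 and RefSeq (GRCm38.p6), where all 68 histone genes were matched. Tables were made with pandas 2.3.3 and numpy 2.4.6 in Python 3.11.15, figures with matplotlib 3.10.9.

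The genes, lists and tests were chosen with earlier results of these data known. Named were, of each type, the 3 with the most reads per kb of row and the 2 with the smallest p (from the voom fit with no filter where fewer than 2 were tested), all genes with reads outside Hist1, and, of each list, the 2 with the smallest p. Hist1h2be, Hist1h2ae, Hist1h2bg, Hist1h2ai, Hist1h4m, Hist1h1d, Hist1h1t, Hist1h2al, H3f3b, Slbp and the overlapping rows were named after their values were seen. Alternatives were centring, quantile normalization, other filters, a pseudocount of 1, voom, a robust prior, a replicate block and leaving out each library. Voom without a filter, the block with centring and blocks on the other number in the column names were chosen after seeing the data.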

Additional observations from a re-analysis of the deposited data

Results flagged for a closer look

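The summed level of the 68 histone genes was uneven among the null libraries. It was 17.9, 18.8 and 18.9 RPM in null libraries A, B and C and 26.3 in null library D. The gap from D to the next library was 0.881 of the whole range of the group, above Dixon's 95% critical value for 4 samples. Such a gap was looked for in 18 sets of values, and chance alone gives one in about 1 in 20 sets. The 3 wild-type libraries are too few for this check. In null library D the 5 genes above the filter held 847 of 1682 histone reads (50.4%), against 43% to 49.4% in the other null libraries.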

How the results depend on the processing

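In each of the 28 fits 0 histone genes were called, with 2 at an unadjusted p under 0.05 in the deposited fit. The count of called genes over the whole table, 6 as deposited and 8 centred, was 16 after quantile normalization, 13 with the filter at log2 1, 10 without a filter after centring, 12 with a pseudocount of 1, 13 with voom and no filter and 53 with a robust prior. Leaving out 1 library gave 2 to 4205 as deposited and 4 to 10 centred. The numbers in the column names (18, 21, 22) are unexplained, and the main fit did not use them. Same-numbered libraries of the 2 genotypes correlated in their deviations at 0.36, 0.20, 0.41 and -0.05, and all other pairs at -0.36 to 0.25. The highest values, 0.41 and 0.36, were thus of same-numbered libraries. What such libraries share was not tested. With these numbers as a replicate block 742 genes were called, and 8 with the block and centring, with 0 histone genes in both fits. A block on the other number, shared by null library D with wild-type libraries B and C, gave 2 calls, and 0 when centred, where limma's unadjusted p was under 0.05 for 864 higher and 1279 lower genes. Hist1h2be turned to -0.07 under quantile normalization. Centred and with 1 library left out, it ran from -0.02 (without null library A) to 0.31, and Hist1h1c from -0.05 (without wild-type library A) to 0.59. The sum over the 63 genes below the filter, 0.17 on the log2 scale of RPM, was -0.01 per M reads in listed genes. The cause of these shifts was not tested. All other differences of the 5 genes above the filter kept their sign. Depth limits the rest: 29 histone genes had at most 10 reads in every library.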

Other observations

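Many H2a and H2b genes of the mouse clusters lie head to head and share a promoter region. Among the 68 genes, 13 such pairs were found on opposite strands, 12 of an H2a with an H2b gene and 1 of Hist1h2bh with the H3 gene Hist1h3f. The partners often had unequal reads over the 7 libraries. Hist2h2be had 726 reads and Hist2h2ac, 240 bases away, had 41. Hist1h2bc had 457 and Hist1h2ac, 250 bases away, had 131. Hist1h2bp had 172 and Hist1h2an, 242 bases away, had 22. In other pairs the counts were near each other, with 140 for Hist1h2ag and 156 for Hist1h2bj at 264 bases. The rows differ in length and in shared sequence, so these are counts and not a comparison of levels. Hist1h2ae and Hist1h2bg, 175 bases apart, were the only pair in which both genes had every null library above every wild-type library as deposited. Over all rows 6.21% had that pattern. After centring the groups of Hist1h2ae overlapped, and Hist1h2bg had only 7 to 16 reads per library.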
